A study of Homo sapiens with 6 samples.

Results

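The prohibitins PHB and PHB2, their partner STOML2, the inner mitochondrial membrane proteases AFG3L2, SPG7 and YME1L1, and the protease substrate OPA1 were followed in RH36 cells over-expressing miR-27a. Members were all probes whose gene name in the array files is one of these 7 names, which gave 7 of the 30484 gene names and 15 of the 41000 probes on the array. RH36 is a cell line from embryonal rhabdomyosarcoma (ERMS), a childhood tumour with skeletal muscle features, and the labels describe it as lacking the PAX3/FOXO1 fusion. One group of 3 arrays came from RH36 cells transfected with pre-miR-27a, a synthetic precursor of the microRNA, and the other group of 3 arrays came from RH36 cells transfected with a negative precursor, the pre-control. The labels give 10 nM of precursor, a test of over-expression at 24 hours, and analysis at 48 hours for the pre-miR-27a samples only. Delivery was transient, both groups are from 1 cell line, and the time of the pre-control samples is not labelled, so it was not settled that the groups were collected at the same hour. Each array measured labelled RNA in 1 colour with Agilent probes, and the question was which transcripts differ once miR-27a is raised.

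PHB and PHB2 assemble together into large rings in the inner mitochondrial membrane, where they act as scaffolds for other membrane proteins and take part in keeping cristae in shape. The rings associate with the m-AAA protease, whose subunits AFG3L2 and SPG7 degrade damaged proteins and process others on the matrix side. STOML2 binds prohibitins and the mitochondrial lipid cardiolipin, YME1L1 is the catalytic subunit of the i-AAA protease facing the intermembrane space, and OPA1 is the dynamin-like GTPase that fuses inner membranes and is cut by YME1L1 and OMA1.

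The microRNA supplied is shown because its seed, the stretch that pairs with target transcripts, was supplied by the transfection. Mature sequences are from RefSeq (GRCh38.p14), printed 5′ to 3′, with bases 2 to 8 in capitals. The main strand of miR-27a lies on the minus strand at chr19:13836447-13836467, and miR-27b, encoded on chromosome 9, has the same seed.
hsa-miR-27a-3p: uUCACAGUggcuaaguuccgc
hsa-miR-27b-3p: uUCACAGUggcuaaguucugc
hsa-miR-27a-5p: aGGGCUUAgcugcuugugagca
The 5p strand of the same hairpin has a different seed. Neither transcript nor probe sequences were used here, so no search for seed sites in the members was made.

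Signals are log2 of the background-subtracted spot intensity after quantile normalization, and a difference is the pre-miR-27a mean minus the pre-control mean on that scale. Of the 15 member probes, 14 passed the filter that allows a missing spot on at most 1 of the 6 arrays, and all 14 were well above background on all 6 arrays. With limma and Benjamini-Hochberg adjustment over all 36469 probes kept, 2 member probes were lower in miR-27a over-expressing cells at an adjusted p under 0.05, 1 of PHB and the 1 of STOML2, and 0 were higher. Of all probes, 7.83% were called in either direction, 3.88% lower and 3.95% higher. At an unadjusted p under 0.05 there were 5 member probes, 3 lower (PHB probes 1 and 2 and STOML2) and 2 higher (both AFG3L2 probes). The same limit was met by 9037 of all 36469 probes. The groups did not overlap for 3 member probes that were lower and 3 that were higher, where 17.8% and 14.8% of all probes did so (32.5% in either direction). With 14 probes, several of them from the same transcript, these counts do not mark the members out from the array as a whole. Over the 14 probes the median difference was −0.08, against −0.02 over all probes. Signals of different probes are not compared with each other as levels, since each probe has its own brightness.

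Several facts of the series apply to every value that follows. Each group was hybridised on a slide of its own, slide 1 for pre-control and slide 2 for pre-miR-27a, so the effects of slide and of transfection cannot be told apart. Between 69.9% and 73.9% of spots were well above background on pre-control arrays and between 74.1% and 78% on pre-miR-27a arrays, and median local background was 74.5 to 76 against 52.5 to 53 intensity units. Spots not found numbered 1559 to 1750 on pre-control and 3487 to 4153 on pre-miR-27a arrays. Of 8 spike-in control probes well above background on every array, 7 were higher on pre-miR-27a arrays, with a median difference of 0.21 and a range of −0.12 to 0.38 in log2 signal scaled to the 75th percentile, and 2 did not overlap. The part of these differences in the results was not tested. Of 8 muscle lineage markers, 7 were kept and well above background on every array, DES and CHRNA1 among the brightest of them, and MYF5 was not kept. Their summed signal, carried mainly by the brightest, was 127200 to 165500 on pre-control and 114600 to 148400 on pre-miR-27a arrays. Each read at its brightest probe, all 7 had a difference below 0, with a median of −0.15. A second CHRNA1 probe went the other way, at 0.95, and was called higher. At the brightest probe 3 did not overlap between the groups, beside 17.8% of all probes lower without overlap. The 3 were MYOG at −0.95, MYOD1 at −0.45 and CDH15 at −0.35 (limma adjusted p = 0.14, 0.0787 and 0.0561). Of 9 epithelial, immune and endothelial markers, 3 were well above background on all 6 arrays, and EPCAM, CDH1, PTPRC and PECAM1 were so on none. Their summed signal was 505.1 to 649.6 on pre-control and 396 to 429.5 on pre-miR-27a arrays. CD14 and CD3E were called lower at their brightest probes, and a second CD3E probe differed by only −0.05. The probes called were dim, at processed intensities of 94.3 to 210 for CD14 and 121 to 199 for CD3E. The part of these markers in the results was not tested. In bulk RNA of a single cell line, fewer cells carrying a marker and less of its RNA per cell cannot be told apart.

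**Figure D1:**
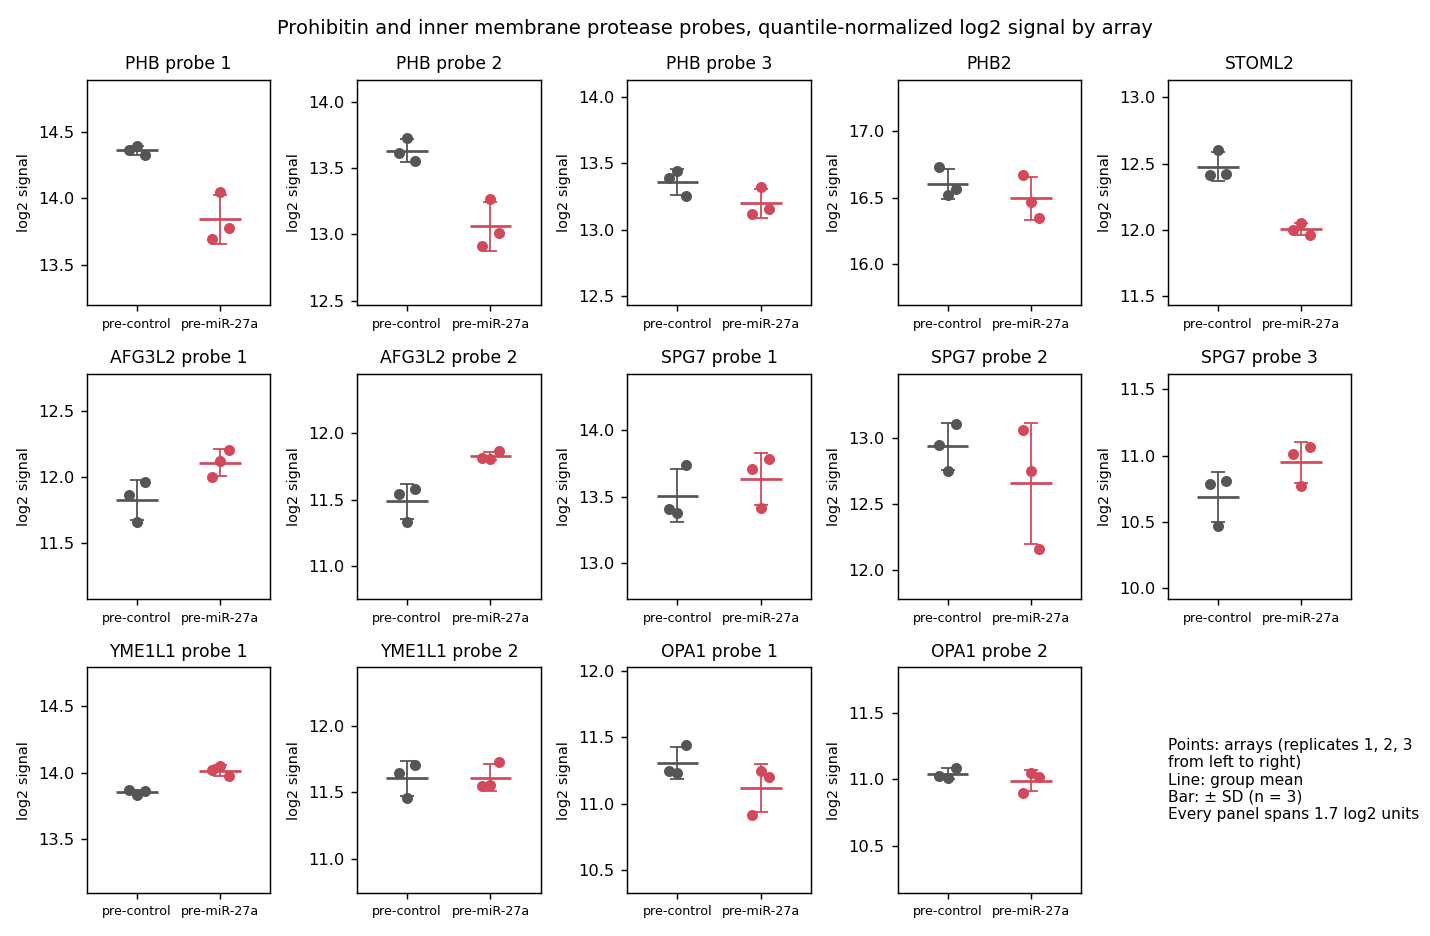
Quantile-normalized log2 signal of the 14 member probes on each of the 3 pre-control and 3 pre-miR-27a arrays, with group mean and SD, every panel covering the same log2 range. PHB probes 1 and 2 and STOML2 are lower on every pre-miR-27a array, both AFG3L2 probes and YME1L1 probe 1 are higher on every one, and the other 8 probes overlap between the groups.

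PHB signal was lower on every pre-miR-27a array at the 2 probes nearest the start of the gene, of which 1 passed the threshold and the other lay just outside it, and the groups overlapped at the third probe. PHB lies on the minus strand of chromosome 17, and the files place its probes (NM_002634) on build hg18. Probe 1 is at chr17:44844090-44844149, probe 2 spans 2264 bases at chr17:44841814-44844077, and probe 3 is at chr17:44836778-44836837, the furthest along the direction of transcription. Exon and UTR annotation of hg18 was not used here. PHB is also a gene that the study took from these arrays to further assays, so its difference here is not independent of that choice.

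PHB probe 1, the brightest of the 3, read 14.36, 14.39 and 14.33 on pre-control arrays 1 to 3 and 13.69, 14.05 and 13.78 on pre-miR-27a arrays 1 to 3. Every pre-miR-27a array was below every pre-control array, and the pre-miR-27a arrays were spread more widely. The means were 14.36 ± 0.03 and 13.84 ± 0.19 (SD, n = 3 each), a difference of −0.52 (standard error 0.11, 95% confidence interval −0.80 to −0.24, limma adjusted p = 0.0515), or 69.7% of the pre-control signal. The replicate block moved it inside the threshold, at a limma adjusted p of 0.0457.

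PHB probe 2 read 13.62, 13.72 and 13.56 on pre-control arrays and 12.91, 13.26 and 13.01 on pre-miR-27a arrays. The groups again did not overlap, and the array labelled replicate 2 was the highest of its group in both. The means were 13.63 ± 0.08 and 13.06 ± 0.18 (SD, n = 3 each), and the difference of −0.57 (standard error 0.12, 95% confidence interval −0.86 to −0.28) passed at a limma adjusted p of 0.0462, with 67.3% of the pre-control signal remaining. When each array was scaled to its 75th percentile instead, both probes had a difference of larger size, −0.63 for probe 1 and −0.65 for probe 2, at a limma adjusted p of 0.0502 each.

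PHB probe 3 read 13.39, 13.44 and 13.25 on pre-control arrays and 13.12, 13.32 and 13.16 on pre-miR-27a arrays. The groups overlapped, since pre-miR-27a array 2 was above pre-control array 3. The difference was −0.16 (standard error 0.10, 95% confidence interval −0.40 to 0.08, limma adjusted p = 0.363).

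The 3 PHB probes were compared with each other within each array, where whatever shifts a whole array cancels. A slide effect that differs between probes would not cancel. Probe 1 minus probe 3 was 0.97, 0.95 and 1.07 on pre-control arrays and 0.58, 0.73 and 0.62 on pre-miR-27a arrays. The groups did not overlap, and the shift of −0.36 had an exact two-sided permutation p of 0.1, the smallest that 3 against 3 arrays can give. Probe 2 minus probe 3 went from a mean of 0.27 to −0.14, a shift of −0.41 at the same exact permutation p. Probe 1 minus probe 2 was 0.73 ± 0.05 and 0.78 ± 0.01 (SD, n = 3 each), a shift of 0.05 that also had no overlap and an exact permutation p of 0.1. Over the 16 within-array differences computed, the adjusted exact permutation p at this smallest value was 0.178, so none could pass. The mean of the 3 probes differed by −0.42 (limma adjusted p = 0.0755).

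**Figure D2:**
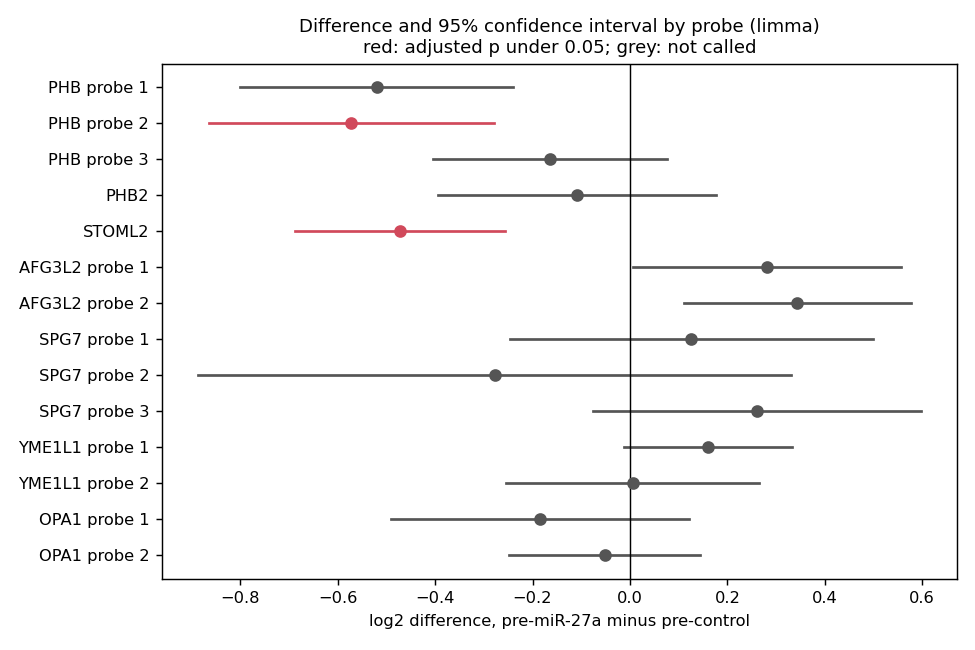
Difference in log2 signal (pre-miR-27a minus pre-control) with its 95% confidence interval from limma for each of the 14 member probes, in red where the adjusted p is under 0.05. PHB probe 2 at −0.57 and STOML2 at −0.47 are the 2 called, and the interval of PHB probe 1 also lies wholly below 0.

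PHB has pseudogenes with closely similar sequence, and the array holds 7 probes that carry another name but are described in the files as prohibitin, prohibitin-like or prohibitin pseudogene. These were gathered after values of the array were known and are given as a description. All 7 were lower in over-expressing cells, by −0.87 to −0.37 with a median of −0.55, and 3 were called lower by limma and 0 higher. The differences called were −0.87 for LOC648992 on chromosome 1 (adjusted p = 0.0301), −0.58 for 1 of the 2 LOC494150 probes on chromosome 12 (adjusted p = 0.0433) and −0.52 for THC2555710, a dim probe with no position in the files (adjusted p = 0.0401). LOC648992 read 12.77, 13.07 and 12.87 on pre-control arrays and 11.84, 12.28 and 11.98 on pre-miR-27a arrays, so its groups were apart by more than their spread. THC2583120, which the files place in the PHB locus at chr17:44841711-44841770, went from 13.69 ± 0.06 to 13.14 ± 0.22 (SD, n = 3 each), a difference of −0.55 (limma adjusted p = 0.0632). In 6 of the 7 the groups did not overlap, THC2555723 being the exception. Of all probes, 3.88% were called lower and 17.8% were lower without overlap. With the replicate block all 7 were called lower, beside 7.62% of all probes. When any 1 array was left out, 0 of the 7 were called by limma, beside 0 to 1276 of all 36469 probes. When any replicate number was removed from both groups, limma called 0 of the 7 and 0 of all probes. PHB and its pseudogenes may share labelled RNA at each other's probes, so which transcript each probe read is uncertain. THC2583120 is not a copy by its position, which lies between PHB probes 2 and 3 on the same strand.

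**Figure D3:**
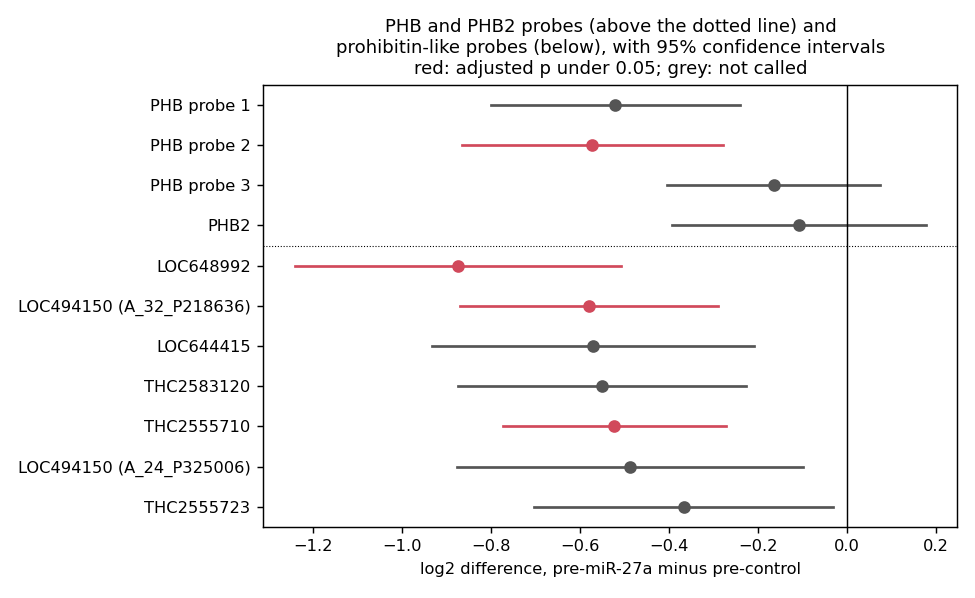
Log2 difference (pre-miR-27a minus pre-control) with 95% confidence interval for the PHB and PHB2 probes and for the 7 prohibitin-like probes. The 7 prohibitin-like probes lie between −0.87 and −0.37, and PHB probe 3 and PHB2, at −0.16 and −0.11, are the probes whose intervals cross 0.

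PHB2, the other ring subunit, has 1 probe (NM_007273) at chr12:6944860-6944919 on the minus strand. It read 16.73, 16.52 and 16.56 on pre-control arrays and 16.67, 16.47 and 16.35 on pre-miR-27a arrays, so the groups overlapped. Its difference of −0.11 (standard error 0.12, 95% confidence interval −0.39 to 0.18, limma adjusted p = 0.623) allows a fall as well as a small rise. The probe is very bright, with raw intensities of 71225 to 120528 and no saturated spot, and with 75th percentile scaling its difference was −0.28 (limma adjusted p = 0.138).

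PHB relative to PHB2 was set out within arrays because both belong to the same ring. PHB probe 1 minus PHB2 was −2.37, −2.13 and −2.24 on pre-control arrays and −2.97, −2.42 and −2.57 on pre-miR-27a arrays. The groups did not overlap, with pre-miR-27a array 1 standing furthest away, and the shift was −0.41 (exact permutation p = 0.1). For PHB probe 2 the shift was −0.46 with no overlap either, and for PHB probe 3 it was −0.06 with overlap (exact permutation p = 0.8). The shift of PHB against PHB2 therefore depended on which PHB probe was read. With 75th percentile scaling the shifts were −0.35, −0.37 and 0.04 for probes 1, 2 and 3.

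**Figure D4:**
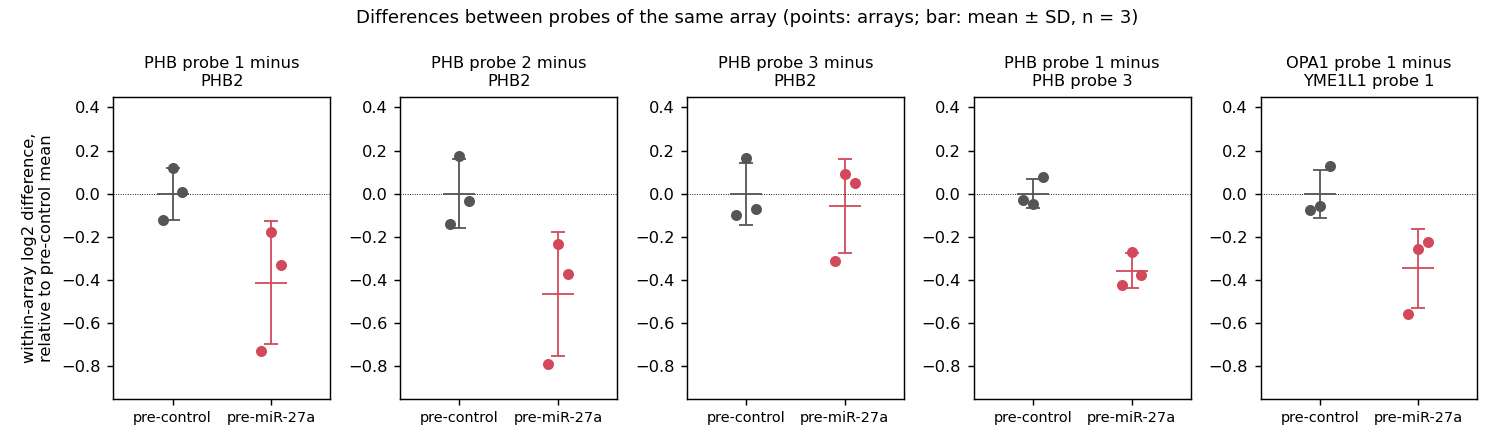
Difference between a pair of probes on the same array, in log2 units relative to the pre-control mean of that pair, for 5 of the 16 pairs compared (points, arrays; bars, mean and SD, n = 3). PHB probes 1 and 2 shift by −0.41 and −0.46 against PHB2, PHB probe 3 by −0.06, and PHB probe 1 by −0.36 against PHB probe 3.

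STOML2, the stomatin-like protein that binds prohibitins and cardiolipin, was lower in over-expressing cells. Its 1 probe (NM_013442) lies at chr9:35091717-35091776 on the minus strand. It read 12.41, 12.60 and 12.42 on pre-control arrays and 12.00, 12.05 and 11.96 on pre-miR-27a arrays. All pre-miR-27a arrays lay together below all pre-control arrays. The means were 12.48 ± 0.11 and 12.01 ± 0.04 (SD, n = 3 each), a difference of −0.47 (standard error 0.09, 95% confidence interval −0.69 to −0.26, limma adjusted p = 0.0362), which is 72.1% of the pre-control signal. STOML2 was the only member called in all 9 alternatives that kept every array and used limma, at differences of −0.52 to −0.45. When any 1 array was left out its limma adjusted p was 0.0692 to 0.12, and the 2 PHB probes likewise lost or did not reach the call. With 1 array left out, 0 to 1276 of all 36469 probes were called.

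The m-AAA protease subunits did not pass the test in either direction. AFG3L2, the subunit that can also form the protease alone, has 2 probes (NM_006796) on the minus strand of chromosome 18. AFG3L2 probe 1 (chr18:12330255-12330314) read 11.86, 11.66 and 11.96 on pre-control arrays and 12.00, 12.12 and 12.20 on pre-miR-27a arrays. AFG3L2 probe 2 (chr18:12338341-12341101) read 11.54, 11.33 and 11.58 on pre-control arrays and 11.81, 11.81 and 11.87 on pre-miR-27a arrays. Every pre-miR-27a array was above every pre-control array at both probes. The differences were 0.28 (standard error 0.11, limma adjusted p = 0.194) and 0.34 (standard error 0.09, limma adjusted p = 0.089), with 95% confidence intervals of 0.01 to 0.56 and 0.11 to 0.58. The probes kept their distance from each other within arrays, the shift between them being −0.06 (exact permutation p = 0.4). Both had an unadjusted p under 0.05, and neither was called under any alternative.

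SPG7, the paraplegin subunit, whose loss is known to cause a hereditary spastic paraplegia, has 4 probes on the plus strand of chromosome 16. SPG7 probe 1 (chr16:88151402-88151461) differed by 0.13 (standard error 0.15) and probe 3 (chr16:88144404-88144463) by 0.26 (standard error 0.14), with limma adjusted p of 0.665 and 0.307. SPG7 probe 2 (chr16:88151119-88151178) read 12.95, 12.75 and 13.10 on pre-control arrays and 13.06, 12.75 and 12.16 on pre-miR-27a arrays. Its difference of −0.28 (standard error 0.25, limma adjusted p = 0.547) rested on pre-miR-27a array 3, and without that array it was −0.03. Probe 1 minus probe 2, of the same transcript, was 0.46 to 0.66 on the other 5 arrays and 1.62 on that one. The groups overlapped at all 3 probes. The fourth probe, annotated to transcript variant 2 (NM_199367, chr16:88130828-88130887), was removed by the filter because its spot was not found on 2 arrays. Its processed intensity was 91.8, 60.8 and 86.1 on pre-control arrays and 71.0, 62.9 and 49.8 on pre-miR-27a arrays, and no test was made.

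YME1L1, the i-AAA protease, has 2 probes on the minus strand of chromosome 10, annotated to different transcript variants. Whether each probe reads only its variant was not checked. YME1L1 probe 1, annotated to variant 2 (NM_139313, chr10:27440755-27440814), read 13.87, 13.83 and 13.86 on pre-control arrays and 14.02, 14.05 and 13.97 on pre-miR-27a arrays. The groups did not overlap, but the difference was small at 0.16 (standard error 0.07, limma adjusted p = 0.229), and it was 0.05 with 75th percentile scaling. YME1L1 probe 2, annotated to variant 1 (NM_139312, chr10:27439659-27439718), differed by 0.01 (standard error 0.10, 95% confidence interval −0.25 to 0.26, limma adjusted p = 0.983).

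OPA1, the inner membrane fusion GTPase, has 2 probes (NM_130837) on the plus strand of chromosome 3 and overlapped between the groups at both. OPA1 probe 1 (chr3:194897568-194897627) read 11.25, 11.23 and 11.44 on pre-control arrays and 10.91, 11.25 and 11.20 on pre-miR-27a arrays, a difference of −0.19 (standard error 0.12, limma adjusted p = 0.42). OPA1 probe 2 (chr3:194866803-194866862) differed by −0.05 (standard error 0.08, limma adjusted p = 0.743). Set against its protease on the same array, OPA1 probe 1 minus YME1L1 probe 1 was −2.62, −2.60 and −2.42 on pre-control arrays and −3.10, −2.80 and −2.77 on pre-miR-27a arrays. This shift of −0.35 had no overlap and an exact permutation p of 0.1, and it was −0.23 with 75th percentile scaling. The other 3 pairs of an OPA1 and a YME1L1 probe shifted less. OPA1 probe 2 shifted by −0.21 against YME1L1 probe 1 with no overlap (exact permutation p = 0.1), and against YME1L1 probe 2 the shifts overlapped, at −0.19 for OPA1 probe 1 (exact permutation p = 0.2) and −0.06 for OPA1 probe 2 (exact permutation p = 0.5). OPA1 against its protease therefore depended on the probes read. The proteolytic forms of OPA1 are proteins and cannot be read from these probes.

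Besides the members, 83 genes of mitochondrial membrane biology, mitochondrial content and general reference were listed, and all 83 were measured, each by its brightest probe. Of these, 44 were lower and 39 higher, with a median difference of −0.03. 1 was called lower by limma and 0 higher, beside 3.88% and 3.95% of all probes. An unadjusted p under 0.05 was found for 10 lower and 5 higher, and for 9037 of all 36469 probes. The gene called was FIS1, an outer membrane adaptor of mitochondrial fission. FIS1 read 12.68, 12.72 and 12.71 on pre-control arrays and 12.16, 12.15 and 12.41 on pre-miR-27a arrays. The groups did not overlap, and the difference was −0.47 (standard error 0.10, limma adjusted p = 0.0475). A second FIS1 probe differed by −0.50 (limma adjusted p = 0.0365), so both probes of the gene were called. When any 1 array was left out, the first probe stayed between −0.55 and −0.42 at a limma adjusted p of 0.0739 to 0.148.

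By list, 0 of 13 other proteases and maturation factors were called by limma, and 0 had an unadjusted p under 0.05. OMA1, the stress-activated protease that also cuts OPA1, differed by 0.25 (standard error 0.12, adjusted p = 0.276), and PARL, the rhomboid protease, by −0.24 (standard error 0.12, adjusted p = 0.292). The groups overlapped for both. Of 10 fusion and fission genes, 7 were lower and 3 higher, with a median of −0.13. The groups did not overlap for 3 that were lower and 3 that were higher, beside 17.8% and 14.8% of all probes. At an unadjusted p under 0.05 there were 1 lower and 2 higher, a limit met by 9037 of all 36469 probes. SMCR7L, whose protein recruits the fission dynamin, differed by 0.40 (limma adjusted p = 0.0702), and GDAP1, an outer membrane protein, by 0.36 (limma adjusted p = 0.149), both higher on every pre-miR-27a array. At its brightest probe SMCR7L was called with normexp correction and with the variance trend. The other SMCR7L probes differed by 0.03 and 0.19, and neither was called in the main test. MFN2, the outer membrane mitofusin, differed by −0.17 (limma adjusted p = 0.267), with every pre-miR-27a array below every pre-control array. DNM1L, the dynamin that divides mitochondria, was not settled by its probes. Its brightest probe differed by −0.03 (limma adjusted p = 0.907) and a second by 0.24 (limma adjusted p = 0.249). The dimmest, annotated to transcript variant 1, differed by 0.68 (limma adjusted p = 0.0224), reading 10.07, 10.33 and 10.16 against 10.80, 10.96 and 10.85.

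No gene of the remaining lists was called by limma. Among 7 genes of cristae organisation the median was 0.03, and 2 had an unadjusted p under 0.05. IMMT, the core of the MICOS complex, differed by 0.05 at its brightest probe (limma adjusted p = 0.732). A second IMMT probe differed by 0.36 and was not called. Among 8 genes of cardiolipin synthesis and lipid transfer the median was −0.15, with 6 lower and 2 higher and 3 at an unadjusted p under 0.05. That limit was met by 9037 of all 36469 probes. The median was 0.14 over 8 other stomatin domain genes, 0.04 over 10 matrix chaperone and import genes, −0.13 over 5 protease substrates and mitochondrial ribosome genes, and 0.05 over 16 genes of mitochondrial content. The 6 reference genes had a median of −0.02. With the replicate block 6 of the 83 genes were called, 5 lower and 1 higher, where 7.62% and 7.24% of all probes (14.9% in either direction) were called: FIS1, C19orf70, TAZ, PRELID1 and PGAM5 lower and the reference gene HPRT1 higher. PRELID1, at −0.39, carries phosphatidic acid across the intermembrane space for cardiolipin synthesis, and C19orf70, at −0.49, is a MICOS subunit.

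**Figure D5:**
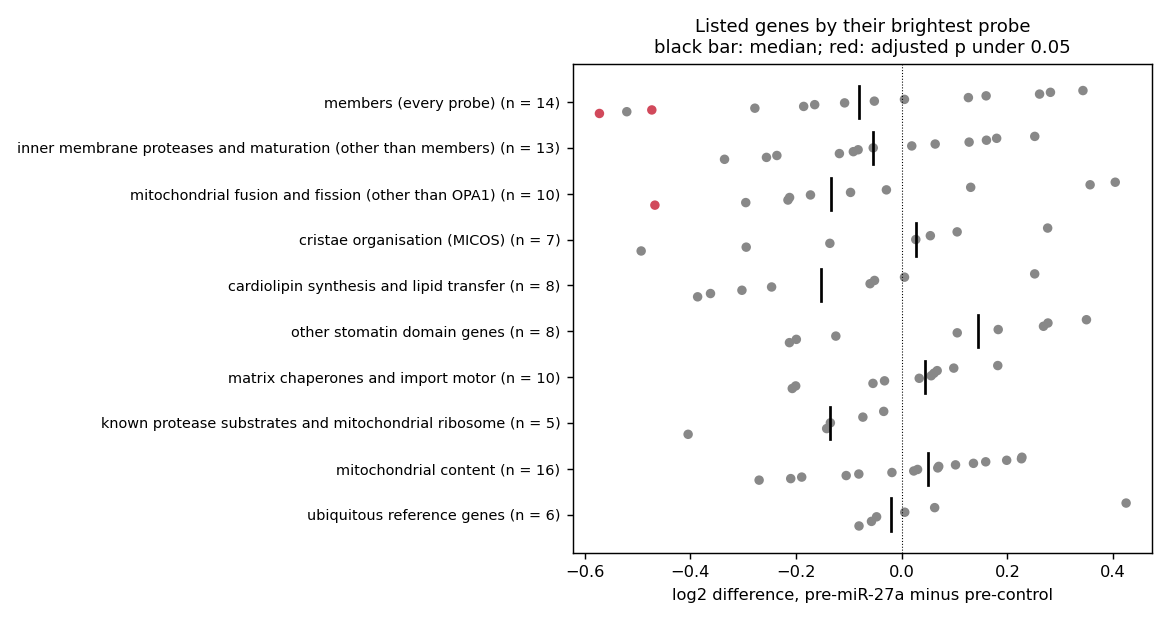
Log2 difference (pre-miR-27a minus pre-control) of the 14 member probes and of the 83 listed genes, 1 point per member probe or gene, with the median of each list as a bar. PHB probe 2, STOML2 and FIS1 are the red points, called at an adjusted p under 0.05, and list medians run from −0.15 to 0.14.

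The genes whose 6 values, centred on their mean, were nearest to those of PHB probe 1 were sought among 19239 probes of other named genes whose signal stood well above background on every array. They were PHLDB2, ZNHIT4 (now INO80B) and CXCL3, with root mean square differences of 0.0386, 0.0437 and 0.0449 log2 units over the 6 arrays. Their probes were dim, with processed intensities of 51.1 to 93.8, 60.9 to 113 and 94.4 to 176. PHB probe 1 read 11976.5 to 23839.2. Of these genes only PHLDB2 was called (limma adjusted p = 0.0474). The part of the background difference between the slides in this nearness was not tested. PHB probe 2 lay at 0.0398 from probe 1 and STOML2 at 0.102. PHB probe 3 lay at 0.188 and PHB2 at 0.273.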

How the data were processed

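RNA of 6 RH36 samples was hybridised to Agilent 1-colour arrays. Per the file headers, the intensity deposited for each spot is the processed signal of Feature Extraction 10.5.1.1, background-subtracted and not yet normalized across arrays. Quantile-normalized log2 values, deposited as well, served as an alternative. Columns of per-sample values not used numbered 0.

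Control spots were left out, log2 intensities were quantile normalized, spots not found were set to missing, replicate spots were averaged, and probes missing on more than 1 of 6 arrays (17%) were removed. limma 3.58.1 (R 4.3.3, the data.table package 1.17.8) compared the groups with Benjamini-Hochberg adjustment at 0.05, and the code was tested on simulated data. Single within-array values had an exact two-sided permutation test. SAM at 5% and 1.9% was an alternative, run as the two-class unpaired test with 20 relabellings. The study describes the test in 1 place as two-class and in another as paired, so the paired form, with 8 sign changes, was added after the data were seen. The other alternatives were 75th percentile scaling, normexp correction (offset 50), filters on dim probes, the replicate block, variance trend and robust estimation, outlier spots left out, and arrays left out.

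Pre-control and pre-miR-27a arrays of the same number deviated together from their group means, with correlations of 0.396, 0.456 and 0.409 over 31717 probes, and those of different numbers at −0.266 to −0.123. The numbers, given in the sample titles as biological replicates, were therefore taken to pair the arrays in the replicate block and in paired SAM only. The main limma test and the permutation tests did not use the pairing. The number is also the position of the array on its slide, so a shared culture and a shared position cannot be told apart. The labels do not say whether replicates were separate cultures, so p-values measure the spread between these samples. The number of arrays limits the precision.

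Members and gene lists were chosen with earlier results of these data known. The text names every member probe, listed genes called at their brightest probe, OMA1, PARL, MFN2 and DNM1L, and the 3 genes nearest to PHB probe 1. LOC648992, LOC494150, THC2555710, THC2583120, THC2555723, IMMT, SMCR7L, GDAP1 and the genes called under the block were named after their values were seen. Probe positions are those of the files (hg18). Old gene names were matched through a RefSeq table of GRCh38.p14. The dose and time in the study's methods differ from those of the labels, and which applies was not settled.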

Additional observations from a re-analysis of the deposited data

How the results depend on the processing

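Over all probes 2856 were called (50.4% higher), and 75th percentile scaling, which moved the median of all probes from −0.02 to −0.09, gave 3256 of which 39.2% were higher. The replicate block gave 5421, SAM at 5% 1336 and SAM at 1.9% 9, and paired SAM, chosen after seeing the data, 1667 and 3. Of the 2 member probes called, 75th percentile scaling left 1 (STOML2), while SAM, paired or not, called 0 at 5% and at 1.9% (paired q of 5.40%, 5.49% and 5.71% for PHB probe 2, STOML2 and PHB probe 1). Normexp correction, the block, the deposited log2 values, the variance trend and the stricter filters called 3, adding PHB probe 1. The block changed no other call of a member. Listed genes called went from 1 to 3 with normexp correction, 6 with the block, 3 with the variance trend and 2 when any probe of a gene could count, and to 0 with SAM at either level, paired or not. Leaving out 1 array at a time gave 0 to 1276 probes (1276 without pre-control 1, 81 without pre-control 3, 0 without any of the other 4), 0 to 0 member probes and 0 to 0 listed genes called by limma, with 7178 to 8636 probes, 4 to 5 member probes and 7 to 14 listed genes at an unadjusted p under 0.05. Removing a replicate number from both groups, chosen after seeing the data, called 0 throughout, with 6577 to 6963 probes, 3 to 4 member probes and 4 to 7 listed genes at an unadjusted p under 0.05. PHB probes 1 and 2 and STOML2 stayed lower under every limma alternative run, PHB probe 1 by −0.63 to −0.45 and PHB probe 2 by −0.67 to −0.50. The sign turned in 2 member probes that were not called. SPG7 probe 2 was at 0.054 without replicate 3 in both groups. YME1L1 probe 2 was at −0.0046 with normexp correction, −0.069 without pre-control replicate 2, −0.054 without pre-miR-27a replicate 3 (−0.069 to 0.057 over the arrays left out in turn), −0.041 without replicate 2 in both groups and −0.0027 without replicate 3 in both groups. The cause was not tested. Arrays confined to 1 slide per group and 3 arrays a group limit every value here.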
